A study of Mus musculus with 20 samples.

Results

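The mitochondrial genome encodes proteins of the respiratory chain, and 10 of its protein gene rows were followed across 20 RNA-seq libraries of mouse colon tissue. The rows were chosen by symbol: ND6, which lies on its own strand, and ND1, ND2, ND4, ND5, CYTB, COX1, COX2, COX3 and ATP6 on the other. They are 10 of 37 mitochondrially encoded rows and of 46329 gene rows in the files. The libraries came from C57BL/6J mice aged 100 days, and every animal was ApcMin/+, a genotype prone to intestinal tumors, and Erbb2 f/f, that is, homozygous for the conditional Erbb2tm1Mll allele. Erbb2-deficient mice also carried Tg(Vil1-cre), a cre recombinase driven by the Villin promoter of intestinal epithelial cells, while their littermate controls had no cre. Erbb2-deficient tumors, Erbb2-deficient adjacent tissue, control tumors and control adjacent tissue were represented by 5 libraries each, described in the labels as biological replicates. Cells other than epithelium keep Erbb2 in this model, and cre itself also differs between the genotypes. The labels do not tie equally numbered libraries to a shared mouse. P-values reflect only how much libraries differ within groups. In the edgeR tests that spread was estimated over all groups together, with information shared between rows.

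Transcription of the mitochondrial genome starts in the control region and runs around the circle in both directions, giving long transcripts that are cut, mostly at the transfer RNAs between the genes, into single RNAs. Both ribosomal RNAs, most transfer RNAs and all messengers except that of ND6 come from transcripts in the same direction. ND6 and the remaining transfer RNAs are encoded on the opposite strand, and the rest of that transcript, which lies antisense to the other genes, is normally degraded. In human cells the messenger of ND5 is known to extend past its coding sequence over the stretch opposite ND6, and that of COX1 over the stretch opposite a serine transfer RNA. ND proteins are subunits of complex I, CYTB of complex III, COX proteins of complex IV and ATP6 of the ATP synthase.

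Sequences of genes on the ND6 strand that carry most of the counts below, and of the gene end that ND6 meets, are shown from GENCODE M21 transcripts (assembly GRCm38, chromosome MT), each 5′ to 3′ on its own gene's strand. The files name the build mm39, so no coordinate is given. The ends of ND5 and ND6 overlap by 14 bases on opposite strands. That overlap is in capitals, and its letters in ND6 are the reverse complement of those in ND5. TrnS1, a serine transfer RNA gene, and TrnP, the proline transfer RNA gene, are given whole. TrnS1 meets the end of COX1 on the opposite strand with an overlap of 3 bases.
ND5, last 60 bases: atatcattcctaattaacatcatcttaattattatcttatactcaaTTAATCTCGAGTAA
ND6, last 60 bases: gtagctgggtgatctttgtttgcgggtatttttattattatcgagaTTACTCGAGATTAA
TrnS1: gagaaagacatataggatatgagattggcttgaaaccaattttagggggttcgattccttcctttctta
TrnP: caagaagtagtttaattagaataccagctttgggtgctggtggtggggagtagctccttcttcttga

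The libraries held 1071737 to 1944309 gene counts, which were 2.51% to 3.45% of the reads in each file. Control tumors 2 and 3 stood apart in marker rows. Control tumor 2 had a summed level of 18.2 CPM (counts scaled to a common library size, here per 1e6 counts) over 8 epithelial rows, the lowest of all libraries. Control tumor 3 had the highest summed level of the control tumors over 5 goblet cell rows (556 CPM) and over 8 smooth muscle rows (515 CPM). With 1 to 22 counts in a library, the row of Erbb2 itself had too few to check the genotype labels. The edgeR tests of the 10 rows and TrnS1 between tissues in controls, and of the 10 rows between genotypes in tumors, are also given without both of these libraries. Adjacent tissue, labelled as epithelium, had higher smooth muscle rows than tumors in each genotype. Their summed level was 219 CPM (range 161 to 251) in Erbb2-deficient tumors and 1215 CPM (1047 to 1381) in Erbb2-deficient adjacent tissue, and 251 CPM (160 to 515) in control tumors and 1774 CPM (1067 to 2516) in control adjacent tissue.

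Mitochondrial counts lay almost entirely on the strand of ND6. The 9 rows on that strand, ND6 and 8 transfer RNAs, together held 26585 to 302065 counts per library. The 28 rows on the other strand, 12 proteins, 2 ribosomal RNAs and 14 transfer RNAs, together held 899 to 5751 counts. The ND6 strand thus took 90.2% to 98.3% of the mitochondrial counts in all 20 libraries. The contrast was sharpest among transfer RNAs. The 8 on the ND6 strand together held 3986 to 109001 counts per library, whereas the 14 on the other strand held 0 to 11, and 9 of those 14 were at 0 in every library. The rows of both ribosomal RNAs, which are among the most abundant mitochondrial RNAs in cells, together held 10 to 227 counts. The library kit keeps the strand of the RNA, and the sources used here do not give the strand setting of the counting. If reads were counted on the strand opposite to their RNA, the ND6, TrnS1 and TrnP rows would hold RNA transcribed across those genes in the direction of the other messengers, and the ND1, CYTB or COX1 rows would hold antisense RNA. A symbol therefore names a row here, and not a measured messenger.

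**Figure D1:**
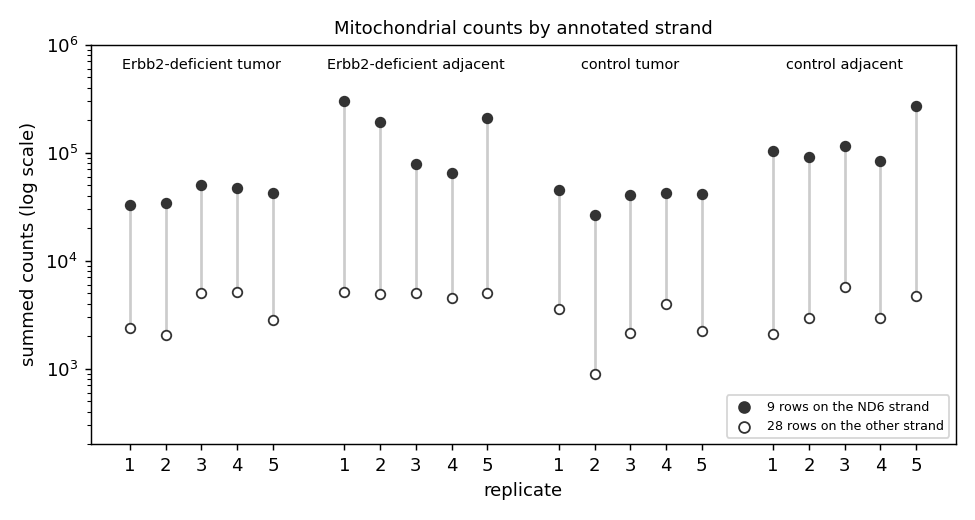
Summed counts per library (log scale) of the 9 mitochondrial rows on the ND6 strand (filled circles) and the 28 rows on the other strand (open circles), by group and replicate. In each of the 20 libraries the filled circle lies above the open one, and the ND6 strand takes at least 90.2% of the counts.

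The ND6 row, named for a complex I subunit, was lower in tumors than in adjacent tissue in both genotypes, by about 3-fold. In Erbb2-deficient tumors its level was 20348, 21083, 29780, 29063 and 24805 CPM in replicates 1 to 5, against 116075, 99163, 44838, 37717 and 91753 CPM in Erbb2-deficient adjacent tissue. In control tumors it was 24748, 20515, 29454, 32690 and 29274 CPM, against 80825, 60995, 67117, 50702 and 146116 CPM in control adjacent tissue. All tumors lay within a narrow band below every adjacent library of their genotype, and the adjacent libraries differed widely among themselves. The means were 25016 ± 4370 CPM in tumors and 77909 ± 34674 CPM in adjacent tissue of Erbb2-deficient mice (SD, n = 5 each), or -1.64 ± 0.29 SE on the log2 scale (edgeR quasi-likelihood test, adjusted p = 0.000452). In controls they were 27336 ± 4747 CPM in tumors and 81151 ± 37917 CPM in adjacent tissue, or -1.57 ± 0.29 SE on the log2 scale (edgeR adjusted p = 0.000937). Without control tumors 2 and 3 the control value was -1.49 on the log2 scale (edgeR adjusted p = 0.00514, range over 18 alternatives 3.90e-05 to 0.00970). In bulk tissue, fewer cells with the RNA and less RNA per cell cannot be told apart.

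**Figure D2:**
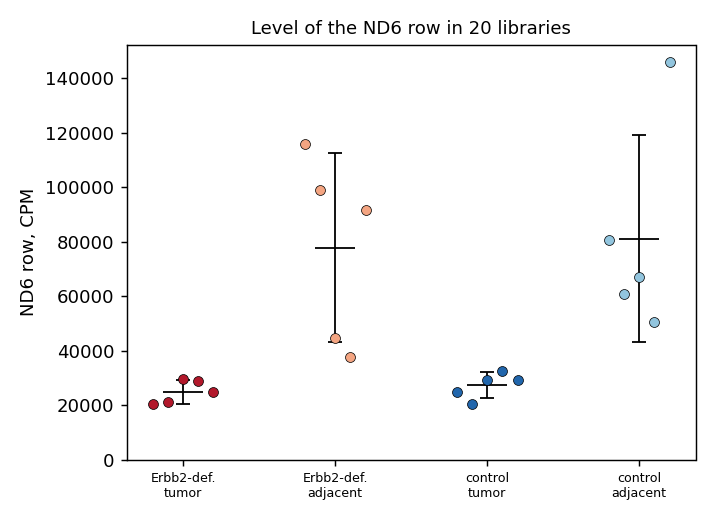
Level of the ND6 row in CPM for each of the 20 libraries (points), with the mean and SD of the 5 libraries of each group (bars). Tumors of both genotypes lie between 20348 and 32690 CPM, below all adjacent libraries, which reach 146116 CPM.

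The same difference was present in the share of all gene counts on the ND6 row. This share divides the same counts by the library total alone, so it is not independent of the levels above. It was 2.74% ± 0.473 in Erbb2-deficient tumors and 7.37% ± 2.94 in Erbb2-deficient adjacent tissue (SD, n = 5 each). In controls it was 2.63% ± 0.476 in tumors and 7.18% ± 2.93 in adjacent tissue. Each tissue difference had p = 0.00794 in a two-sided exact permutation test, the smallest that 5 against 5 can give (0.0159 after Benjamini-Hochberg adjustment over 4 comparisons). The counting error is small beside the spread between libraries: the lowest share, in control tumor 2, had a 95% Wilson interval of 1.87% to 1.92%, and the highest, in control adjacent 5, one of 11.95% to 12.06%, which cover counting error only.

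The transfer RNA rows on the ND6 strand fell as well, most of them with larger log2 fold changes than ND6, a difference that was not tested. In Erbb2-deficient mice 7 of 7 tested rows were lower in tumors (5 to 7 over 18 alternatives), where 14.5% of all 7119 tested rows were called lower, and in controls 6 of 7, where 10.9% were. The eighth, TrnN, did not pass the filter on low counts. TrnS1 carried most of these counts. Its level was 2997, 3476, 3700, 4659 and 3907 CPM in Erbb2-deficient tumors, against 48373, 50501, 14160, 8044 and 42129 CPM in Erbb2-deficient adjacent tissue. In control tumors it was 5929, 2911, 5759, 6618 and 4093 CPM, against 17369, 11200, 17459, 20980 and 87742 CPM in control adjacent tissue. The tumor and adjacent libraries did not overlap in either genotype, and control adjacent 5 was far above the other control libraries. The log2 fold change of TrnS1 was -3.12 ± 0.53 SE in Erbb2-deficient mice (edgeR adjusted p = 0.000303) and -2.61 ± 0.52 SE in controls (edgeR adjusted p = 0.00159). Without control adjacent 5 the control adjacent mean moved to 16752 CPM, from 30950 CPM with all 5 libraries, and the log2 fold change to -1.73, still past the threshold. It was -2.48 without control tumors 2 and 3 (edgeR adjusted p = 0.0158, range over 18 alternatives 1.49e-05 to 0.0158).

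TrnE, the glutamate transfer RNA gene between ND6 and CYTB, had the largest difference of the mitochondrial rows tested. Its level was 5.22 to 25.9 CPM in Erbb2-deficient tumors and 178 to 325 CPM in Erbb2-deficient adjacent tissue, a log2 fold change of -4.14 (edgeR adjusted p = 9.66e-07). In controls it was 15.2 to 31.4 CPM in tumors and 203 to 565 CPM in adjacent tissue, a log2 fold change of -4.02 (edgeR adjusted p = 1.07e-06). TrnP, next to the control region, changed by -2.20 on the log2 scale in Erbb2-deficient mice and by -1.85 in controls. TrnY, TrnA and TrnQ had log2 fold changes between -3.66 and -2.47 over both genotypes. TrnC, at few counts, had -1.64 in Erbb2-deficient mice (edgeR adjusted p = 0.0268) and -1.18 in controls, where it did not pass (edgeR adjusted p = 0.150). Transfer RNA genes are short, and reads that run on into a neighbouring gene were not separated. The ratio of TrnS1 to ND6 counts was 0.151 ± 0.016 in Erbb2-deficient tumors and 0.383 ± 0.119 in Erbb2-deficient adjacent tissue, and 0.184 ± 0.043 in control tumors and 0.335 ± 0.173 in control adjacent tissue (SD, n = 5 each).

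**Figure D3:**
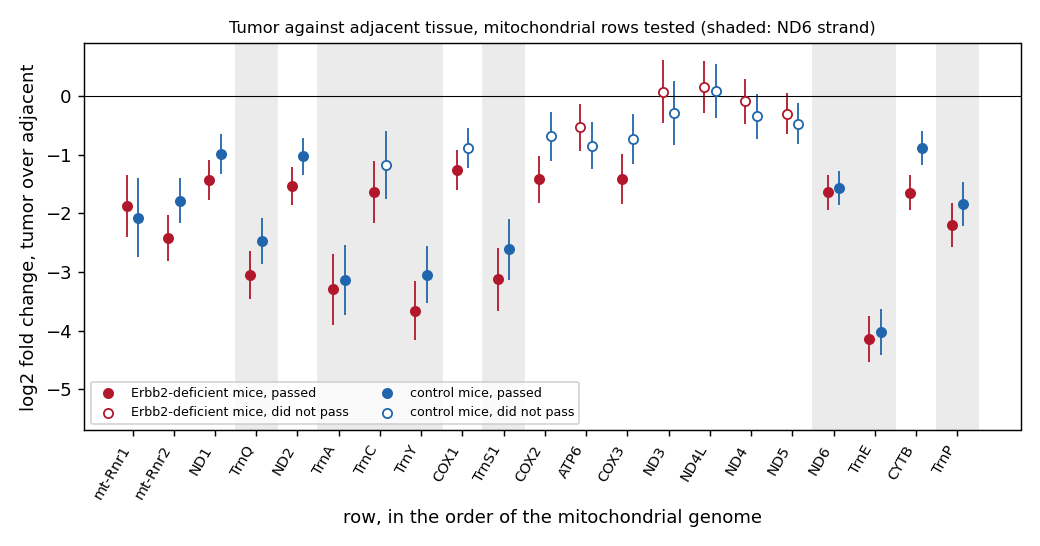
Log2 fold change of tumor over adjacent tissue with its SE for the mitochondrial rows that passed the filter, in the order of the mitochondrial genome, for Erbb2-deficient mice (red) and controls (blue). Filled points passed the edgeR test, and grey shading marks rows on the ND6 strand. TrnE lies lowest at -4.14 and -4.02. ND3, ND4L, ND4 and ND5 lie between -0.47 and 0.15 with open points in both genotypes, and ATP6 also has open points in both.

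All of the other 9 rows passed the filter, and in Erbb2-deficient mice 6 of 9 were lower in tumors and 0 higher (27.5% of all tested rows were called, 14.5% lower and 13% higher). The CYTB row, named for the cytochrome b of complex III, had 58.9, 64.9, 67.0, 89.3 and 57.6 CPM in Erbb2-deficient tumors. It had 289, 230, 289, 103 and 147 CPM in Erbb2-deficient adjacent tissue. The groups did not overlap, and adjacent libraries 4 and 5 were the nearest to the tumors. The tumor over adjacent difference of CYTB was -1.65 ± 0.30 SE on the log2 scale (edgeR adjusted p = 0.000448). The rows ND2 (-1.53 ± 0.32 SE, edgeR adjusted p = 0.00160) and ND1 (-1.43 ± 0.34 SE, edgeR adjusted p = 0.00425), named for complex I subunits, fell too. ND1 had 27.2 to 64.0 CPM in Erbb2-deficient tumors and 35.6 to 137 CPM in Erbb2-deficient adjacent tissue, so its groups overlapped.

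The rows named for complex IV subunits also fell in Erbb2-deficient mice. The COX1 row, named for the catalytic subunit, had 86.9, 88.8, 96.4, 144 and 111 CPM in tumors. In adjacent tissue it had 319, 263, 364, 153 and 167 CPM, without overlap. Its log2 fold change was -1.26 ± 0.34 SE (edgeR adjusted p = 0.00868). The COX2 row, named for the subunit that takes electrons from cytochrome c, had 17.1 ± 7.98 CPM in tumors and 45.7 ± 25.0 CPM in adjacent tissue. Its log2 fold change was -1.42 ± 0.40 SE (edgeR adjusted p = 0.0113). COX3 had 9.84 CPM in tumors and 26.4 CPM in adjacent tissue on average, with -1.42 ± 0.43 SE (edgeR adjusted p = 0.0180). COX3 lost its call without Erbb2-deficient adjacent 5 (edgeR adjusted p = 0.0520, range over 18 alternatives 0.00242 to 0.0520). In 4 of 9 rows, ND2, COX1, COX3 and CYTB, every tumor lay below every adjacent library, as did 13.6% of all tested rows. The median log2 fold change of the 9 was -1.42, beside -0.06 for all tested rows.

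In controls 3 of 9 rows fell and 0 rose (21.6% of all tested rows were called, 10.9% lower and 10.7% higher). CYTB had 64.9, 46.3, 60.7, 82.8 and 34.7 CPM in control tumors, against 112, 99.1, 114, 66.3 and 143 CPM in control adjacent tissue. Control adjacent 4 lay among the tumors and the other 4 above them. The log2 fold changes were -0.88 ± 0.29 SE for CYTB, -1.03 ± 0.32 SE for ND2 and -0.99 ± 0.34 SE for ND1, with edgeR adjusted p of 0.0363, 0.0270 and 0.0448. ND1 was the row of the 9 whose groups did not overlap in controls (6.66% of all tested rows lay wholly lower). COX1 had -0.89 (edgeR adjusted p = 0.0665), ATP6 -0.84, COX3 -0.73 and COX2 -0.68 on the log2 scale, all short of the threshold. The median of the 9 was -0.84, beside 0.07 for all tested rows.

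These control calls rest on single libraries. The count was 0 of 9 without control tumor 5, without control adjacent 3 or without control adjacent 5, and 1 of 9 without control tumor 1 or without control adjacent 1. Without control tumors 2 and 3 together it was 1 of 9, COX1, with a log2 fold change of -0.99 (edgeR adjusted p = 0.0375, range over 18 alternatives 0.0201 to 0.163). ND1, ND2 and CYTB were then short of the threshold, with edgeR adjusted p of 0.0797, 0.0892 and 0.0662 (ranges over 18 alternatives 0.0335 to 0.138, 0.00753 to 0.0983 and 0.0220 to 0.0937). Their log2 fold changes stayed negative in all 18 alternatives. Without control tumors 2 and 3, COX2 had -0.58, ATP6 -0.74 and COX3 -0.34 on the log2 scale, none past the threshold, so the COX3 difference was less than that of -0.73 with all libraries.

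The ND5 and ND4 rows, named for membrane subunits of complex I, did not pass in either genotype. ND5 had 1271, 1021, 2717, 2790 and 1452 CPM in Erbb2-deficient tumors, against 1404, 2677, 2390, 2534 and 2388 CPM in Erbb2-deficient adjacent tissue. In control tumors it had 1818, 572, 1399, 2879 and 1532 CPM, against 1352, 1825, 3200, 1990 and 2979 CPM in control adjacent tissue. Tumors and adjacent libraries overlapped in both genotypes, and in controls adjacent 3 and 5 lay above every tumor. The log2 fold change of ND5 was -0.30 ± 0.35 SE in Erbb2-deficient mice (edgeR adjusted p = 0.553, approximate 95% interval -0.98 to 0.38) and -0.47 ± 0.35 SE in controls (edgeR adjusted p = 0.360, interval -1.15 to 0.22). For ND4 it was -0.09 ± 0.38 SE in Erbb2-deficient mice (interval -0.84 to 0.67) and -0.35 ± 0.38 SE in controls (interval -1.10 to 0.41). Without control tumors 2 and 3 the control values were -0.13 for ND5 and -0.0019 for ND4 on the log2 scale (edgeR adjusted p of 0.796 and 0.997, ranges over 18 alternatives 0.129 to 0.796 and 0.222 to 0.997), so both rest largely on those libraries. The ND4 value of Erbb2-deficient mice had no firm sign and was 0.10 with library totals alone as scale. Whether ND5 or ND4 differed less between tissues than ND6 was not tested. The ATP6 row, named for the proton channel subunit of the ATP synthase, averaged 22.8 CPM in Erbb2-deficient tumors and 33.0 CPM in Erbb2-deficient adjacent tissue. Its log2 fold change was -0.53 ± 0.39 SE (edgeR adjusted p = 0.330). Of the mitochondrial rows outside the list, ND3 and ND4L had no call, and ATP8 did not pass the filter. Both ribosomal RNA rows, at few counts, fell in tumors, with log2 fold changes of -1.88 in Erbb2-deficient mice and -2.07 in controls for mt-Rnr1 and of -2.42 in Erbb2-deficient mice and -1.78 in controls for mt-Rnr2.

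**Figure D4:**
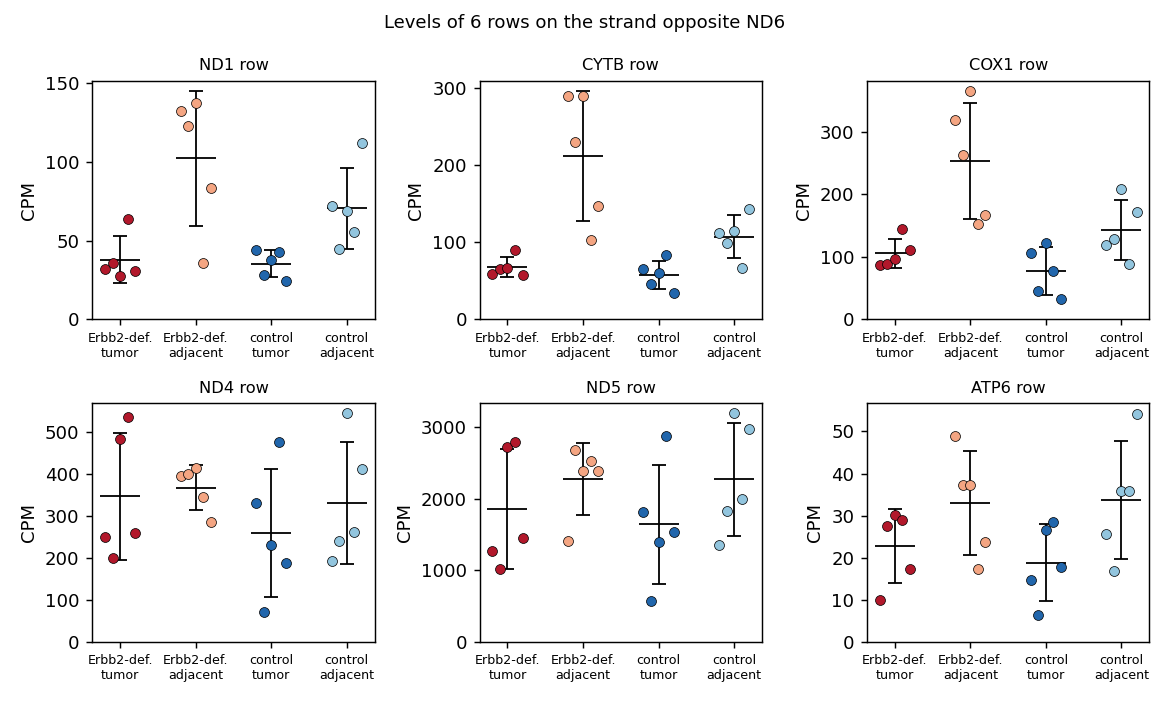
Level in CPM of 6 rows on the strand opposite ND6 for each library (points), with the mean and SD of the 5 libraries of each group (bars). CYTB and COX1 separate tumors from adjacent tissue in Erbb2-deficient mice, while ND4 and ND5 tumors overlap with adjacent libraries in both genotypes.

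Per kilobase of gene, the order of levels began with ND6, ND5 and ND4 in all 4 groups. ND6 averaged 48200 CPM per kilobase in Erbb2-deficient tumors, 150114 in Erbb2-deficient adjacent tissue, 52671 in control tumors and 156360 in control adjacent tissue. ND5 averaged 1014 CPM per kilobase in Erbb2-deficient tumors, 1249 in Erbb2-deficient adjacent tissue, 899 in control tumors and 1244 in control adjacent tissue, and ND4 188 (control tumors) to 267 (Erbb2-deficient adjacent tissue). The ranges of ND6 and ND5 did not overlap in any group, and those of ND5 and ND4 overlapped in control tumors. ND4 overlapped with the row after it in Erbb2-deficient adjacent tissue and in control tumors. COX1 and CYTB came next in every group, at 49.8 to 185 CPM per kilobase on average, in an order that changed between groups and with overlapping ranges. ND1, ND2, ATP6, COX2 and COX3 filled the lower places with 12.6 to 107 CPM per kilobase. Among these, neighbours overlapped in all 4 groups except COX2 and COX3 in Erbb2-deficient tumors. ND5 made up 49.9% to 81.8% of the counts of the 9 rows.

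Some of these rows have nuclear copies that can share reads. At 95% identity or more, nuclear transcripts in GENCODE M21 covered the whole length of COX1 and COX2, 99.9% of COX3, 99.6% of ATP6, 63.6% of ND4, 52.3% of ND5 and 49.1% of ND2. None was found among these transcripts for ND6, ND1, CYTB or any mitochondrial transfer RNA. The rest of the nuclear genome was not searched, so copies outside annotated transcripts could not be found. TrnS1, for example, lies between COX1 and COX2, which both had copies. At 99% identity or more, they covered 99.6% of COX2 and of ATP6, 99.9% of COX3, 63.6% of ND4 and 31.3% of COX1. For ND5 and ND2 the coverage at that identity was 0%. Reads with more than one alignment were listed apart from the gene rows. Their share of a file moved with the tissue, at 6.28% to 7.35% in Erbb2-deficient tumors and 7.86% to 10.99% in Erbb2-deficient adjacent tissue, and at 6.13% to 7.27% in control tumors and 8.14% to 11.5% in control adjacent tissue. Its part in the differences was not tested. The levels of the rows with copies, and their order, are uncertain.

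The counts of ND6 exceeded the sum of the other 9 rows by 7.75-fold to 41.3-fold in all 20 libraries. The ratio averaged 10.9 ± 2.69 in Erbb2-deficient tumors and 23.6 ± 12.5 in Erbb2-deficient adjacent tissue, and 15.1 ± 6.62 in control tumors and 27.4 ± 10.7 in control adjacent tissue (SD, n = 5 each). On the log2 scale the means were 3.41 ± 0.37 in Erbb2-deficient tumors and 4.38 ± 0.82 in Erbb2-deficient adjacent tissue, and 3.81 ± 0.61 in control tumors and 4.69 ± 0.58 in control adjacent tissue. The ratio was higher in adjacent tissue on average, with overlapping libraries, and no test was made of it.

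None of the 10 rows was called between Erbb2-deficient and control mice. ND6 had a log2 fold change of Erbb2-deficient over control of -0.13 ± 0.29 SE in tumors (edgeR adjusted p = 0.921, approximate 95% interval -0.69 to 0.44) and -0.06 ± 0.29 SE in adjacent tissue (edgeR adjusted p = 0.9997, interval -0.62 to 0.50). Neither had a firm sign, at 0.06 in tumors and 0.04 in adjacent tissue with library totals alone as scale. The share of gene counts on ND6 did not separate the genotypes either, with p = 0.698 in tumors and p = 0.905 in adjacent tissue (exact permutation tests). The tumor value was -0.17 without control tumors 2 and 3 on the log2 scale (edgeR adjusted p = 0.881, range over 18 alternatives 0.867 to 1). The interaction of genotype and tissue for ND6 was -0.07 ± 0.41 SE (interval -0.87 to 0.73).

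Of the other 9 rows, 0 were called between genotypes in tumors, in adjacent tissue or for the interaction, as for all tested rows (0% called in each). At unadjusted p under 0.05 there were 0 of 9 in tumors, 3 of 9 in adjacent tissue and 0 of 9 for the interaction, beside 817, 418 and 290 of the 7119 tested rows. DESeq2 called 24 rows in tumors, 6 in adjacent tissue and 0 for the interaction, and none of the 9. The rows at unadjusted p under 0.05 in adjacent tissue were CYTB, COX1 and COX2, all with higher means in Erbb2-deficient mice. CYTB averaged 212 ± 84.2 CPM in adjacent tissue of Erbb2-deficient mice and 107 ± 27.8 CPM in that of controls (log2 fold change 0.99 ± 0.29 SE, edgeR adjusted p = 0.529). COX1 averaged 253 ± 92.6 CPM in adjacent tissue of Erbb2-deficient mice and 143 ± 47.3 CPM in that of controls (0.83 ± 0.34 SE, edgeR adjusted p = 0.8001). COX2 averaged 45.7 CPM in adjacent tissue of Erbb2-deficient mice and 19.2 CPM in that of controls (1.25 ± 0.40 SE, edgeR adjusted p = 0.612). The groups overlapped in all 3. Of the 9 rows, 0 lay wholly lower in Erbb2-deficient mice in either tissue, beside 1.19% of all tested rows in tumors and 0.801% in adjacent tissue. In tumors the log2 fold changes of the 9 ranged from -0.42 for COX3 to 0.51 for COX2, and without control tumors 2 and 3 from -0.78 for COX3 to 0.58 for COX1, again with 0 called. With all libraries the interactions ranged from -0.76 for CYTB to 0.31 for ATP6.

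Some rows varied together among libraries of the same group, without falling into separate sets. Pearson's r of log2 CPM minus the group mean, over 20 libraries that share the same depth and scaling for all rows, is given as a description. It was 0.90 between ND6 and TrnS1, 0.86 between ND6 and TrnP and 0.91 between ND4 and ND5. Among ND1, ND2, COX1, COX2 and CYTB it was 0.66 to 0.87. Other pairs cut across these: ND2 had its highest r with ND4 (0.80), COX3 with TrnS1 (0.75), and ND1 had 0.70 with TrnS1. Between ND6 and the other 9 it was 0.25 (ND5) to 0.67 (COX3), and between ND5 and those 5 rows 0.22 to 0.62. The ND6 row thus had higher r with TrnS1 and TrnP than with ND5, whose end it overlaps. The other tested transfer RNA rows of its strand had only 0.45 (TrnY) to 0.54 (TrnC) with ND6. ND1 (0.59) and ATP6 (0.58), on the other strand, lay above these, as did COX3.

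**Figure D5:**
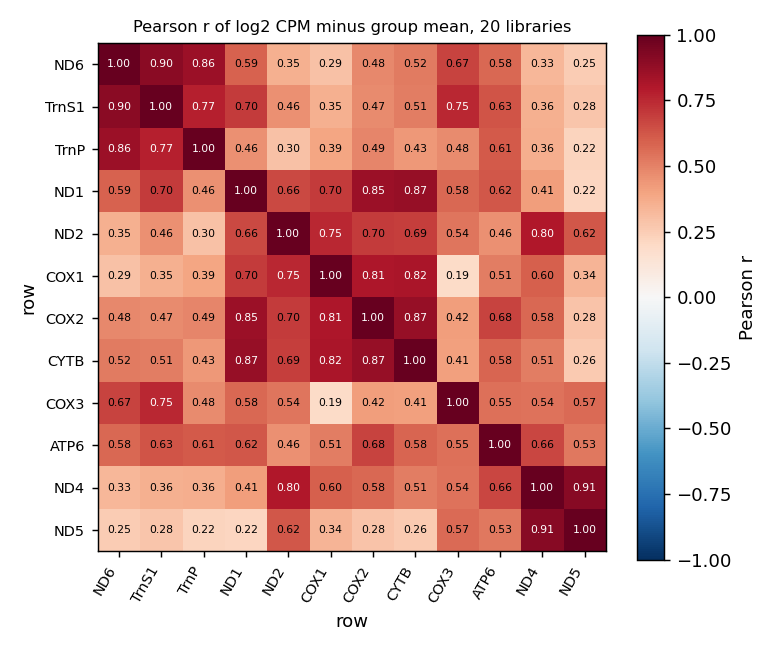
Pearson's r of log2 CPM minus the group mean between 12 mitochondrial rows over 20 libraries, as colour and number. ND6 is closest to TrnS1 (0.90) and TrnP (0.86), ND4 is closest to ND5 (0.91), and ND1, ND2, COX1, COX2 and CYTB have 0.66 to 0.87 with each other, while ND2 is closest to ND4 (0.80).

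By the same measure, among rows averaging 20 counts or more, the 5 rows most like ND6 outside the mitochondrial genome were Tmem262 (0.85), Ints11 (0.81), Mrps18b (0.80), 4930526I15Rik (0.77) and Nlgn4l (0.77). Of 40 nuclear genes of mitochondrial RNA synthesis and turnover, 12 had rows that passed the filter. In Erbb2-deficient tumors 2 of 12 rose against adjacent tissue, Polg, the catalytic subunit of the mitochondrial DNA polymerase (116 CPM in tumors and 62.9 CPM in adjacent tissue, edgeR adjusted p = 0.00513), and Gabpa, a nuclear respiratory factor subunit (552 CPM in tumors and 367 CPM in adjacent tissue, edgeR adjusted p = 0.00893). Mterf3, a negative regulator of mitochondrial transcription, fell to 9.93 CPM in Erbb2-deficient tumors, against 26.2 CPM in adjacent tissue (edgeR adjusted p = 0.00705). In controls 2 of 12 rose and 0 fell: Polg (156 CPM in tumors and 73.9 CPM in adjacent tissue, edgeR adjusted p = 0.00192) and Esrra, a nuclear receptor of mitochondrial genes (58.7 CPM in tumors and 29.9 CPM in adjacent tissue, edgeR adjusted p = 0.0111). These counts lie near the background, in which 13% of all tested rows rose and 14.5% fell in Erbb2-deficient mice, and 10.7% rose and 10.9% fell in controls. These rows too may hold reads of genes on the opposite strand.

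The summed smooth muscle, colonocyte and goblet cell rows were lower in tumors on average, as ND6 was. The epithelial sum was only slightly lower in tumors on average, with overlapping libraries in both genotypes. The fibroblast sum was not lower in tumors in either genotype. Besides smooth muscle (all 8 of 8 rows detected), 5 colonocyte rows had a summed level of 20.4 CPM (6.04 to 36.0) in Erbb2-deficient tumors, with Aqp8 at 0, and 238 CPM (128 to 367) in Erbb2-deficient adjacent tissue. In controls it was 19.7 CPM (0.908 to 79.1) in tumors and 118 CPM (79.6 to 145) in adjacent tissue. The 8 epithelial rows summed to 470 CPM (353 to 643) in Erbb2-deficient tumors and 485 CPM (279 to 617) in Erbb2-deficient adjacent tissue, and to 285 CPM (18.2 to 487) in control tumors and 332 CPM (276 to 399) in control adjacent tissue. The 5 goblet cell rows summed to 131 CPM (17.5 to 303) in Erbb2-deficient tumors and 536 CPM (435 to 830) in Erbb2-deficient adjacent tissue. In controls they summed to 133 CPM (0 to 556) in tumors and 395 CPM (179 to 742) in adjacent tissue, with overlap. The 5 fibroblast rows summed to 82.0 CPM (38.2 to 136) in Erbb2-deficient tumors and 25.97 CPM (9.92 to 50.0) in Erbb2-deficient adjacent tissue. In controls they summed to 38.8 CPM (10.9 to 59.3) in tumors and 37.3 CPM (9.79 to 93.8) in adjacent tissue. The marker rows, like the Erbb2 row, may also hold reads of genes on the opposite strand. The part of cell makeup in the ND6 difference was not tested.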

How the data were processed

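Read counts per gene symbol were used as the authors deposited them, 1 file for each of 20 libraries, with no normalization. The submitters' processing notes list genome build mm39 and the tools DESeq2, HTSeq (2.0.2), HISAT2 (2.2.1) and Trimmomatic. Their settings, the strand setting of the counting among them, are not stated in the labels. Summary rows that name no gene (reads on no feature were 78.6% to 85.1% of a file) stayed out of library sizes and tests.

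All rows were fitted in R version 4.3.3 using edgeR version 4.0.16 (filterByExpr by group at a minimum count of 10, which kept 7119 of 46329 rows, TMM scaling, means model of 4 groups over 20 libraries, robust quasi-likelihood F test, Benjamini-Hochberg at 0.05 over all tested rows). CPM are counts over the TMM-scaled library size of the tested rows. The SE is the size of the log2 fold change over the square root of F, and approximate intervals are normal. DESeq2 version 1.42.0 was an alternative. The procedure was tested on simulated data. Nuclear copies were sought with blastn version 2.17.0 in GENCODE M21 transcripts. No library was dropped. The members, gene lists and marker lists were chosen with earlier results of these data known. Named besides the members were the other mitochondrial rows, the 5 rows most like ND6 and up to 3 called synthesis genes per direction. The difference between ND6 and the other rows was described by a ratio, with no test. The immune marker rows are not reported here.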

Additional observations from a re-analysis of the deposited data

Results flagged for a closer look

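Within groups of 5 libraries, 4 of 48 sets of values held a library far from the rest by Dixon's criterion. Chance gives about 1 in 20. The sets covered levels of the 10 protein rows, the ND6 share of gene counts and the log2 ratio of ND6 to the others. TrnS1 and TrnP were not screened. Erbb2-deficient tumor 4 was high for ND1, at 64.01 CPM, and for COX2, at 31.26 CPM. Control adjacent 5 was high for COX3, at 51.6 CPM, and without it the group mean was 14.7 CPM, against 22.1 CPM with it. Erbb2-deficient adjacent 1 was low for ND5, at 1404 CPM, while it had the highest ND6 level of its group.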

How the results depend on the processing

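ND6 and 5 of the 6 other rows called in Erbb2-deficient mice were past the threshold in tumors against adjacent tissue under all 18 alternatives, as was ND6 in controls. The transfer RNA rows called in Erbb2-deficient mice were 5 with only the compared groups fitted and 6 to 7 with 1 library left out. The exception, COX3, is given in the report. The count of the other 9 called in controls (3) was 1 with library totals only, 1 with no filter on low counts, 0 with only the compared groups fitted, 1 without control tumors 2 and 3, and 1 with a replicate block, and 0 to 4 when 1 library was left out. Library totals only moved the median log2 fold change of all rows from -0.06 to 0.13 in Erbb2-deficient mice and from 0.07 to 0.17 in controls, and the split of calls from 929 higher and 1030 lower to 1233 and 756, and from 764 and 776 to 945 and 637. For genotype they moved the median of all rows to 0.18 in tumors and 0.12 in adjacent tissue. Calls over all rows were 2939 (tissue, Erbb2-deficient) and 2544 (tissue, controls) without control tumors 2 and 3, beside 1959 and 1540, and 593 in controls with only the compared groups fitted. Between genotypes in adjacent tissue 1 row was called with no filter, 1 without control tumors 2 and 3 and 1 without control adjacent 5.

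The log2 ratio of ND6 to the others without ND5 was 5.32 in Erbb2-deficient tumors, 6.00 in Erbb2-deficient adjacent tissue, 5.86 in control tumors and 6.62 in control adjacent tissue.

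Values near 0 turned in sign, none past the threshold, and the cause was not tested. With library totals only, ND6 was 0.064 between genotypes in tumors, 0.042 in adjacent tissue and 0.021 for the interaction, ND4 was 0.098 between tissues in Erbb2-deficient mice, ND2 was 0.18 between genotypes in tumors and ATP6 0.084 in adjacent tissue. ND2 in tumors was 0.0057 with mitochondrial rows left out of library sizes, 0.022 with only the compared groups fitted and 0.085 with the replicate block. ATP6 in adjacent tissue was 0.0029 with only the compared groups fitted. ND5 in adjacent tissue was -0.0062 with RLE factors, -0.0068 with mitochondrial rows left out, -0.039 with no filter, -0.022 without control tumors 2 and 3 and -0.028 with DESeq2. Without control tumors 2 and 3, ND5 was -0.13 between genotypes in tumors and -0.11 for the interaction, and ND4 -0.022 for the interaction.

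With 1 library left out at a time, the genotype difference in the share of gene counts on ND6 was -0.077 to 0.23 percentage points in tumors and -0.561 to 1.39 in adjacent tissue. The log2 values were -0.27 to 0.083 for ND4 between tissues in Erbb2-deficient mice. In tumors they were -0.17 to 0.20 for ND1, -0.17 to 0.29 for ND2 and -0.037 to 0.47 for ND5. In adjacent tissue they were -0.26 to 0.24 for ND6, -0.24 to 0.18 for ATP6, -0.0088 to 0.39 for ND4 and -0.15 to 0.14 for ND5. For the interaction they were -0.38 to 0.13 for ND6 and -0.018 to 0.49 for ND5.

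Whether equal numbers mark the same mouse is unknown, and they were not treated as pairs because some correlations were under 0.1: the correlation of their deviations was -0.016 to 0.23 in Erbb2-deficient mice and -0.12 to 0.37 in controls, over 0.1 in 3 of 5 pairs of each, and 1 and 3 of 5 tumors were most like their own number. With the replicate block, 1989 rows were called between tissues in Erbb2-deficient mice and 1428 in controls. The SE of ND6 (0.29 between tissues in Erbb2-deficient mice) was close to that of CYTB (0.30), a row of far fewer counts.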
